A study of Rattus norvegicus with 5 samples.

Results

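The genes described here carry the insulin and insulin-like growth factor (IGF) signal in proximal tubular cells: the receptors Insr and Igf1r, the docking proteins Irs1 and Irs2, the binding protein Igfbp1, the PI3-kinase subunit Pik3r1, the kinases Akt1 and Akt2, and the transcription factors Foxo1 and Foxo3. They were chosen by name as a pathway, 10 in all, and each was read from the probe sets that the platform annotation pairs with that symbol alone, taking the brightest by its mean over the 5 arrays. Of the 10 genes, 9 had such a probe set, among 14506 genes and 29215 probe sets. Irs2 was not analysed here.

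Gene expression was measured on Affymetrix whole-transcript arrays in proximal tubular cells, the epithelium of the first nephron segment, isolated from kidneys of Sprague-Dawley rats. All cells came from animals with type I diabetes, so the untreated cells were diabetic too, and no non-diabetic group was analysed here. Cells treated with C-peptide, the connecting peptide cut out of proinsulin, were collected after 2 h on arrays from 3 animals, and cells kept without C-peptide for the same 2 h on arrays from 2 animals. The dose of C-peptide, the way diabetes was induced, the age of the animals and whether the medium held insulin are not stated in the labels or notes used here. Nor is it stated whether equally numbered animals of the groups were the same animal, and p-values measure the spread between these arrays.

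Insulin and the IGFs bind receptor tyrosine kinases, which phosphorylate IRS docking proteins. These recruit PI3-kinase, whose lipid product activates AKT, and AKT phosphorylates FOXO factors and thereby keeps them out of the nucleus. When the signal is weak, FOXO factors activate genes such as Igfbp1, Irs2, Insr and those of gluconeogenesis, a pathway that the proximal tubule shares with the liver. C-peptide is known to activate PI3-kinase and AKT in several cell types, without binding the insulin receptor as insulin does.

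No gene of this group passed the test at adjusted p 0.05 (limma, Benjamini-Hochberg over all probe sets), and neither did any other of the 29215 probe sets (0.0%). The largest differences were those of Igfbp1 and Foxo1 and ran in opposite directions. Igfbp1 was 1.54-fold higher with C-peptide at unadjusted p = 0.0230, and Foxo1 was 1.54-fold lower at unadjusted p = 0.0543, with adjusted p values of 0.359 and 0.447. The receptors, Irs1, Pik3r1, the AKT kinases and Foxo3 differed by 1.25-fold or less. At unadjusted p under 0.05 there was 1 of the 9 genes, against 11.4% of all probe sets, and in 4 of the 9 the groups did not overlap, against 30.0% of all probe sets.

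Differences are C-peptide minus untreated on the scale of log2(intensity + 16) after quantile normalisation, which gives every array the same distribution of values. They come with the standard error (SE) and the 95% interval of the fit. As deposited, the array medians lay between 60.1 and 95.9, lowest on the array of C-peptide animal 1, and the median difference over all probe sets was -0.13, against 0.02 after quantile normalisation. Differences in the values as deposited are therefore given less that median.

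The promoters of Igfbp1 and G6pc1 are shown because they are classic targets of insulin repression through FOXO factors, and that of Insr because it is the receptor that FOXO factors induce. Each window runs from 250 bases before to 50 bases after the annotated start of the gene, 5′ to 3′ on the gene's strand, from RefSeq on GRCr8. The windows are chr14:86261027-86261326 on the plus strand for Igfbp1, chr10:86807409-86807708 on the plus strand for G6pc1 and chr12:6128754-6129053 on the minus strand for Insr. Capitals mark CAAAACA, the core of the insulin response element, or GTAAACA, the FOXO consensus, on either strand.
Igfbp1: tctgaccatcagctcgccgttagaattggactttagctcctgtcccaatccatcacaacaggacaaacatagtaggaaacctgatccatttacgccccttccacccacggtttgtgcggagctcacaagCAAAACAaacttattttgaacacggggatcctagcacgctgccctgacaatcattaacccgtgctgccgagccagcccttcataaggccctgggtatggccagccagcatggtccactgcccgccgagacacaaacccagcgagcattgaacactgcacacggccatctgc
G6pc1: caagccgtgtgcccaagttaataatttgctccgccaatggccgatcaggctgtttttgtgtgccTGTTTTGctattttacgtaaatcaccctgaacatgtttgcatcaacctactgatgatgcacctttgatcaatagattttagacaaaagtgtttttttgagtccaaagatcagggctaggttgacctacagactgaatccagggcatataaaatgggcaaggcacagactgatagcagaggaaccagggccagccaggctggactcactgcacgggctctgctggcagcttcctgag
Insr: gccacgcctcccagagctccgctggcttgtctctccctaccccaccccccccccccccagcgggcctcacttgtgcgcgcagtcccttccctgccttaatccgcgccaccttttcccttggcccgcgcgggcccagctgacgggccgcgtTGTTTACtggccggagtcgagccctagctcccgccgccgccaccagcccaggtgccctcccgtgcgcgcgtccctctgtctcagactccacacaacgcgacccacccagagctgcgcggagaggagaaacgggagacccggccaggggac
In the Igfbp1 window CAAAACA stood on the gene's strand from -121 to -115. In the G6pc1 window the same motif stood on the opposite strand, read as TGTTTTG from -186 to -180. In the Insr window GTAAACA stood on the opposite strand, read as TGTTTAC from -100 to -94. Each of these windows held 1 match, so no matches overlapped. CAAAACA occurred in 6.28%, GTAAACA in 3.78% and either motif in 9.64% of all 33469 promoter windows of this length. Of the 10 genes, 8 had a window in the table, all but Irs2 and Foxo3, and Igfbp1 and Insr were those with a motif. A match of letters is a description of the window and shows no binding.

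Igfbp1 is a secreted protein that binds IGFs and limits their access to the receptor, and insulin represses its gene in liver. In the C-peptide group it had normalised intensities of 428, 478 and 689 (animals 1, 2 and 3), against 309.5 and 357 in the untreated group (animals 1 and 2). Every C-peptide array was above both untreated arrays, and C-peptide animal 3 stood highest. The means were 532 ± 138 with C-peptide (SD, n = 3) and 333 ± 33.5 without (SD, n = 2). The log2 difference was 0.62 ± 0.22 (SE; 95% interval 0.11 to 1.13). An exact permutation test over the 10 arrangements of the arrays gave a two-sided p of 0.2, where the smallest possible is 0.1.

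The groups of Igfbp1 were apart after quantile normalisation but not in the values as deposited. As deposited, Igfbp1 had intensities of 306, 539 and 685 on the C-peptide arrays, against 342 and 384 on the untreated arrays. C-peptide animal 1, the array with the lowest median, then lay below both untreated arrays. The difference was 0.54 in these values less the median of all probe sets, with an unadjusted p of 0.206 before the median was taken off. Without C-peptide animal 3 the difference was 0.43 (unadjusted p = 0.0443). Without untreated animal 1 it was 0.53 (unadjusted p = 0.126), and without untreated animal 2 it was 0.72 (unadjusted p = 0.0518).

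Foxo1, the FOXO factor through which insulin controls gluconeogenic genes in liver, had normalised intensities of 233, 426 and 408 on the C-peptide arrays, against 610.1 and 474 on the untreated arrays. All C-peptide arrays lay below both untreated arrays, with C-peptide animal 1 far below the other two. The means were 356 ± 107 with C-peptide (SD, n = 3) and 542 ± 96.5 without (SD, n = 2). The log2 difference was -0.62 ± 0.27 (95% interval -1.26 to 0.01), and the exact permutation p was 0.2. As deposited, the groups were also apart, at 163, 482 and 397 against 657 and 511. The difference in these values was -0.84 (unadjusted p = 0.0268), and it was -0.71 less the median of all probe sets, which was not tested. In the values as deposited, before the median was taken off, Foxo1 was the 1 of the 9 genes at unadjusted p under 0.05, against 7.04% of all probe sets. Without C-peptide animal 1 the difference was -0.35 (unadjusted p = 0.0859), without animal 2 it was -0.77 (unadjusted p = 0.0377) and without animal 3 it was -0.73 (unadjusted p = 0.0474). Without untreated animal 1 it was -0.45 (unadjusted p = 0.263), and without untreated animal 2 it was -0.80 (unadjusted p = 0.0692).

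Foxo3, a related factor that induces genes of cell cycle arrest and stress resistance, had normalised intensities of 304, 199 and 229 with C-peptide, against 311 and 285 without. The groups overlapped through C-peptide animal 1, the array on which Foxo1 was lowest. The log2 difference was -0.29 ± 0.19 (95% interval -0.74 to 0.16; unadjusted p = 0.176). Without C-peptide animal 1 it was -0.45 (unadjusted p = 0.0240), and without C-peptide animal 2 it was -0.16. As deposited, the 3 C-peptide arrays at 215, 230 and 221 lay below the untreated arrays at 343 and 305, with a difference of -0.38 less the median. Foxo4, a further member of the family, had normalised intensities of 95.3, 105 and 106 with C-peptide, against 132 and 146 without, so that its groups were apart. Its difference was -0.40 ± 0.14 (unadjusted p = 0.0237, adjusted p = 0.363 in limma). The 3 FOXO genes measured thus had negative differences after quantile normalisation, after centring of the arrays and in the values as deposited, and none passed the adjusted test.

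**Figure D1:**
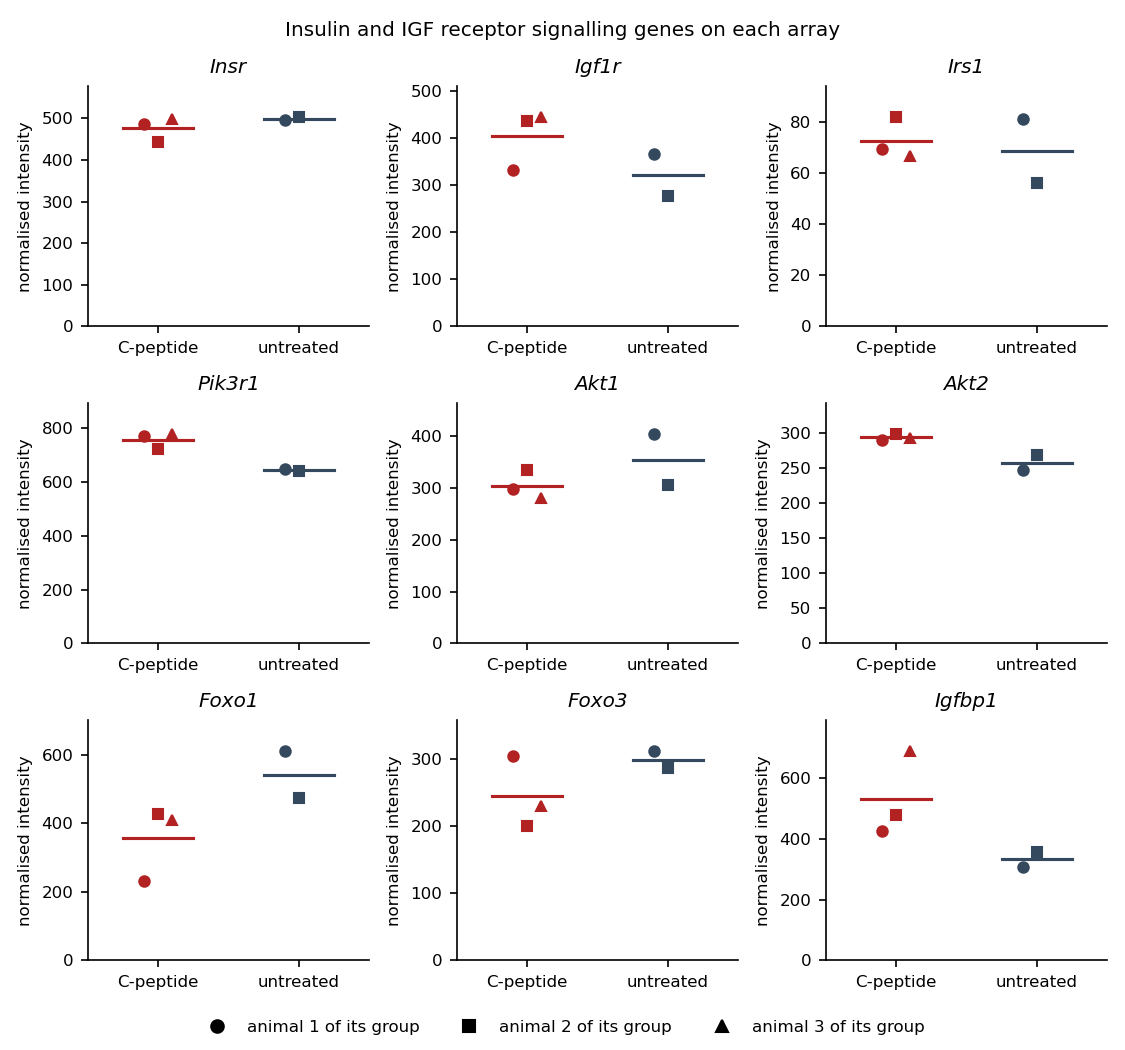
Quantile-normalised intensity (y axes, linear, from 0) of the 9 measured genes on each array of the C-peptide group (left, red, 3 animals) and the untreated group (right, dark, 2 animals), with horizontal lines at the group means and a symbol for the animal number within its group. Igfbp1, Pik3r1 and Akt2 have all C-peptide arrays above both untreated arrays, Foxo1 has all below, and the other genes overlap.

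Insr, the insulin receptor, had normalised intensities of 487, 444 and 498 on the C-peptide arrays, against 496 and 502 on the untreated arrays. The groups overlapped, and the log2 difference of -0.07 ± 0.14 had a 95% interval of -0.39 to 0.26, between 1.31-fold lower and 1.19-fold higher. A second probe set of Insr gave -0.19 ± 0.19, also with overlap. Igf1r, the receptor for IGF1, had 333, 435 and 444 with C-peptide, against 365 and 277 without. C-peptide animal 1 lay between the untreated arrays, and the difference was 0.32 ± 0.19 (95% interval -0.13 to 0.77; unadjusted p = 0.138). The Igf1r difference was 0.45 without C-peptide animal 1 (unadjusted p = 0.0436), 0.51 without untreated animal 1 and 0.13 without untreated animal 2.

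Irs1, a docking protein phosphorylated by both receptors, was the dimmest of these probe sets relative to the array and the 1 of the 9 below the median probe set. Its normalised intensities were 69.4, 82.0 and 67.0 with C-peptide, against 81.3 and 56.4 without. C-peptide animals 1 and 3 lay between the untreated arrays, and the difference of 0.08 ± 0.18 turned to -0.13 without untreated animal 2. Pik3r1, the regulatory subunit that docks PI3-kinase on IRS proteins, had 772, 724 and 778 with C-peptide, against 648 and 642 without. The groups were apart and each was tight, and the difference was 0.23 ± 0.13 (95% interval -0.09 to 0.54; unadjusted p = 0.133). As deposited, Pik3r1 had 577, 804 and 775 against 696 and 698, and the groups overlapped.

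Akt2, the AKT kinase most tied to glucose uptake in muscle and fat, had 291, 299 and 294 with C-peptide, against 248 and 269 without. Each C-peptide array was a small step above both untreated ones, and the difference was 0.18 ± 0.13 (95% interval -0.14 to 0.49). As deposited the groups overlapped, at 206, 340.2 and 285 against 277 and 287. Akt1, more tied to growth and survival, had 297, 334 and 280.5 with C-peptide, against 403 and 305 without. C-peptide animal 2 lay between the untreated arrays, and the difference was -0.20 ± 0.17 (95% interval -0.60 to 0.20; unadjusted p = 0.277). It was -0.01 without untreated animal 1 and -0.39 without untreated animal 2.

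Over the 9 genes, 5 differences were above 0 and 4 below, with a median of 0.08, beside 0.03 over all genes. The groups were apart with C-peptide above in 3 genes, against 16.1% of all probe sets, and with C-peptide below in 1, against 13.8%. The intervals reached furthest in Igfbp1, to 2.19-fold higher, and in Foxo1, to 2.39-fold lower. In the other 7 genes they ended within 1.71-fold higher, for Igf1r, and 1.68-fold lower, for Foxo3. The spread within the C-peptide group differed widely among the genes, from a log2 SD of 0.02 in Akt2 and 0.06 in Pik3r1 to 0.35 in Igfbp1 and 0.46 in Foxo1.

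**Figure D2:**
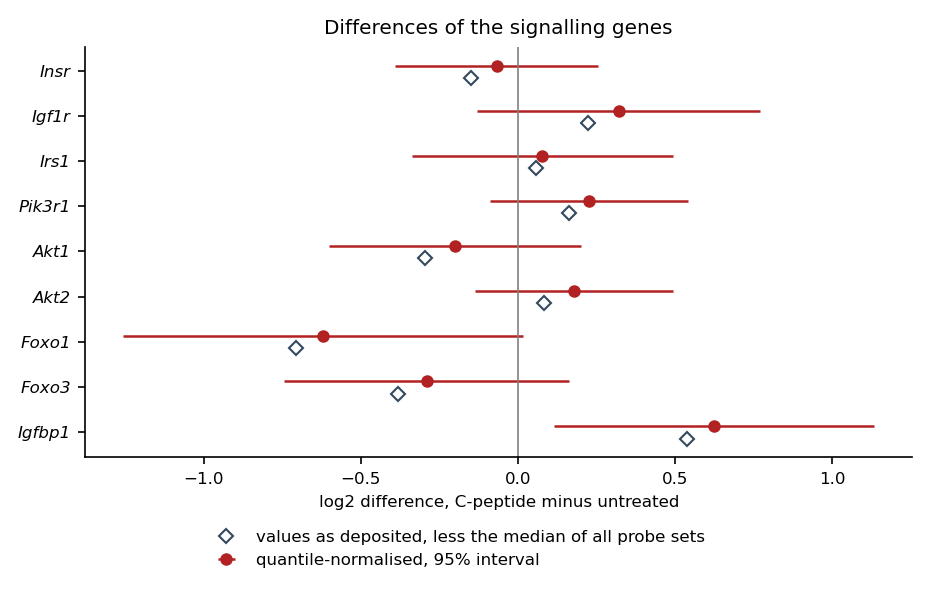
Log2 difference, C-peptide minus untreated (x axis), of the 9 measured genes, as points with 95% intervals after quantile normalisation and as open diamonds in the values as deposited less the median of all probe sets. The interval of Igfbp1, 0.11 to 1.13, excludes 0, the others include it, and every diamond lies on the same side of 0 as its point.

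The genes with the pattern most like Igfbp1 over the 5 arrays, by the root mean square distance of their centred log2 values among 8564 genes brighter than the median probe set, were Tfrc (0.037), Calb1 (0.078), Msmo1 (0.086), Lactb2 (0.095) and Bend5 (0.099), where the median distance was 0.40. For Foxo1 they were Mmp15 (0.072), Adgrf5 (0.086), Srgap2 (0.096), Klf12 (0.099) and Atm (0.10), where the median distance was 0.47. Foxo3 stood at rank 5396 by likeness to Foxo1, and Akt1 at rank 1583. With 5 arrays these distances are a description.

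Markers of the tubule and of other cell types differed between the groups as well. All 13 proximal tubule markers were measured and above 0 on every array, and all 13 had differences above 0, with a summed normalised intensity of 27682 to 36530.3 with C-peptide, against 20927 to 24449 without. Of 11 endothelial markers, 10 had differences below 0 and 9 were apart with C-peptide below, beside 13.8% of all probe sets. The sums of the 11 were 7939.8 to 12075 with C-peptide, against 18874 to 21543 without, and the median difference was -1.12. Of 12 immune cell markers 11 were below 0, with sums of 2281 to 2906 against 3834 to 3968. Of 5 podocyte markers measured 4 were below 0, with sums of 1035 to 1630 against 2467 to 3112 and a median difference of -0.36. The median differences of the distal tubule, collecting duct and stromal markers were 0.13, 0.20 and -0.09. None of the markers was at 0 on any array. In bulk RNA, fewer cells of a type and less RNA per cell cannot be told apart, and the part of these markers in the differences of the signalling genes was not tested.

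Further genes of the pathway were counted in 4 lists of 58 genes, of which 49 were measured. None passed at adjusted p 0.05 in limma. At unadjusted p under 0.05, 2 had positive and 6 negative differences, beside 5.06% and 6.30% of all probe sets, and 9 were apart with C-peptide above and 12 with C-peptide below, beside 16.1% and 13.8% of all probe sets. When the probe sets tested were limited to those brighter than the median, 2.69% of 14607 probe sets passed at adjusted p 0.05, and among them were 2 of the 38 pathway genes kept, Igfbp5 and Socs3, both lower, and none of the 8 signalling genes kept.

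Among ligands, binding proteins and further receptors, 13 genes were measured, with a median difference of -0.03. Igfbp5, an IGF binding protein that is also bound to matrix, had normalised intensities of 1980, 2959 and 2125 with C-peptide, against 5661 and 4216 without. All C-peptide arrays lay below both untreated arrays, and the means were 2.10-fold apart on the log2 scale of the fit. The difference was -1.07 ± 0.22 (unadjusted p = 0.00169, adjusted p = 0.153). In limma on the brighter probe sets the adjusted p was 0.0341, and over the 13 alternatives it ran from 0.0341 to 0.815 with differences of -1.31 to -0.87. On the same 5 arrays in the same order, the centred log2 level of Igfbp5 was -0.65, -0.08 and -0.55 with C-peptide and 0.85 and 0.43 without, and the mean of the endothelial markers was -0.45, -0.07 and -0.59 with C-peptide and 0.68 and 0.42 without. Both were nearest to the untreated arrays on that of C-peptide animal 2, as were the podocyte and immune marker means, at -0.10 and -0.06. Igfbp5 was lowest in C-peptide animal 1 and the endothelial mean in animal 3. The part of these markers in the difference of Igfbp5 was not tested.

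Igf2r, the receptor that clears IGF2 and carries lysosomal enzymes, had 632, 447 and 608 with C-peptide, against 392 and 367 without, and a difference of 0.53 ± 0.18 (unadjusted p = 0.0222, adjusted p = 0.356). All C-peptide arrays were above both untreated arrays. The mean of the proximal tubule markers on the same arrays was 0.26, -0.01 and 0.39 with C-peptide, against -0.22 and -0.43 without. Igf2r, at 0.39, -0.09 and 0.34 against -0.27 and -0.36, was likewise lowest of the C-peptide arrays in animal 2. However, Igf2r was highest in C-peptide animal 1 and the proximal tubule mean in animal 3. The part of these markers in the difference of Igf2r was not tested. Igfbp2, another binding protein, was at 0.35 ± 0.15, and Igfals, the subunit that stabilises circulating IGF complexes, at 0.39 ± 0.19, neither past the unadjusted test. Igf1 and Igf2, the ligands, were at -0.03 ± 0.16 and -0.19 ± 0.15.

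Among adaptors and brakes at the receptor, 14 genes were measured, with a median difference of -0.14. At unadjusted p under 0.05, 1 was positive and 3 were negative, beside 5.06% and 6.30% of all probe sets. Socs3, a feedback inhibitor of cytokine receptors that also blocks IRS proteins, had 876, 1029 and 792 with C-peptide, against 2022 and 1562 without. The groups were well apart, and the difference was -0.98 ± 0.18 (unadjusted p = 0.000888, adjusted p = 0.134). On the brighter probe sets its adjusted p was 0.0274, in a range of 0.0274 to 0.809 over the 13 alternatives. Its centred levels were -0.42, -0.19 and -0.56 with C-peptide and 0.77 and 0.40 without. The endothelial marker mean had the same order over the arrays. So had the podocyte marker mean, at -0.16, -0.10 and -0.31 with C-peptide and 0.42 and 0.15 without. The part of these markers in the difference of Socs3 was not tested. Socs1, its relative, was at -0.55 ± 0.18 (unadjusted p = 0.0199).

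Enpp1, a membrane enzyme that inhibits the insulin receptor, had 332, 331 and 363 with C-peptide, against 222 and 244 without. After quantile normalisation its groups were apart and its arrays close together, with a difference of 0.52 ± 0.14 (unadjusted p = 0.00657, adjusted p = 0.232). As deposited, Enpp1 had 235, 377 and 354 with C-peptide, against 249 and 262 without. The groups then overlapped, with C-peptide animal 1 below both untreated arrays, and the difference was 0.42 less the median of all probe sets. Grb2, the adaptor that links receptors to Ras, was at -0.39 ± 0.15 (unadjusted p = 0.0305). A second probe set of Grb2 was dimmer and had a difference of the other sign, 0.31 ± 0.26, so that the direction in Grb2 rests on the probe set. Ptpn1, the phosphatase that dephosphorylates the insulin receptor, was at -0.02 ± 0.14.

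Among the other PI3-kinase genes, the lipid and AKT phosphatases and further regulators of AKT, 10 were measured, with a median difference of -0.06. Inpp5d, a lipid phosphatase of blood cells that removes the PI3-kinase product, had 66.1, 128 and 99.5 with C-peptide, against 230.1 and 187 without. All C-peptide arrays lay below both untreated arrays, and the difference was -1.01 ± 0.25 (unadjusted p = 0.00412, adjusted p = 0.200). Of the immune cell markers measured on these arrays, 10 of 12 were apart and below, beside 13.8% of all probe sets, with a median difference of -0.48. The centred level of Inpp5d was -0.84, -0.03 and -0.35 with C-peptide, against 0.75 and 0.46 without. The immune marker mean was -0.22, -0.06 and -0.32, against 0.26 and 0.33. Inpp5d was thus lowest in C-peptide animal 1 and the immune mean in animal 3. The part of the immune markers in the difference of Inpp5d was not tested. The further regulatory subunit Pik3r3 was at -0.34 ± 0.16, the catalytic subunit Pik3cb at 0.26 ± 0.15 and the AKT phosphatase Phlpp2 at 0.25 ± 0.15, none past the unadjusted test. Pdpk1, the kinase that activates AKT, was at -0.06 ± 0.17.

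Downstream of AKT, 12 genes of mTOR, GSK3 and other substrates were measured, with a median difference of 0.10 and a range of -0.40, for Foxo4, to 0.22. Rheb, the GTPase that switches on mTOR, had 298, 278 and 296 with C-peptide, against 377 and 351 without, and a difference of -0.31 ± 0.14 (unadjusted p = 0.0556). Gsk3a, a kinase that AKT inhibits, was at -0.29 ± 0.18, Eif4ebp1, the translation repressor that mTOR inactivates, at 0.22 ± 0.15, and Mtor itself at 0.21 ± 0.16. This list held no difference as large as those of Igfbp5, Socs3 and Inpp5d.

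**Figure D3:**
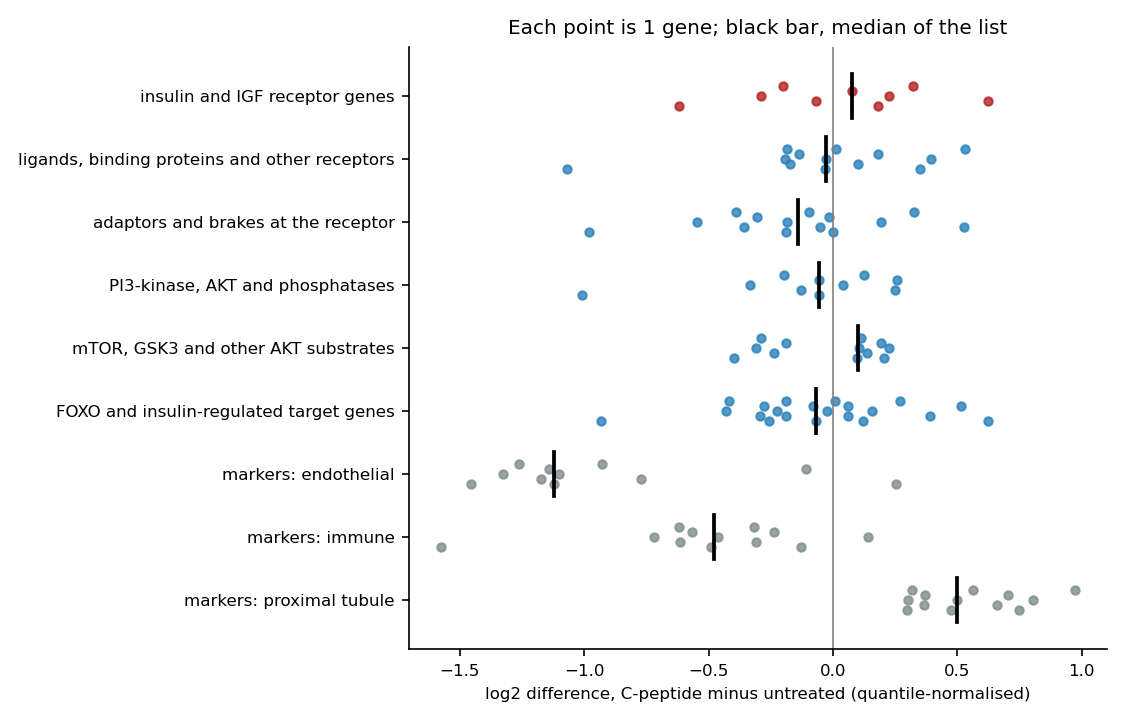
Log2 difference, C-peptide minus untreated after quantile normalisation (x axis), of each measured gene (points) in the insulin and IGF receptor genes, the further pathway lists and 3 lists of cell type markers, with black bars at the list medians. The pathway medians lie between -0.14 and 0.10, the endothelial median at -1.12 and the proximal tubule median at 0.50.

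Of 26 genes that FOXO factors or insulin regulate, 21 were measured, including Igfbp1 and Insr, and their median difference was -0.07. None passed at adjusted p 0.05 in limma, and 2 were positive and 3 negative at unadjusted p under 0.05, beside 5.06% and 6.30% of all probe sets. In both gluconeogenic enzymes among these targets the groups overlapped. G6pc1, glucose 6-phosphatase, was at -0.02 ± 0.16 (95% interval -0.41 to 0.36), and Pck1, which makes phosphoenolpyruvate, at 0.16 ± 0.17 (95% interval -0.24 to 0.55). So the 2 genes whose windows hold CAAAACA above, Igfbp1 and G6pc1, had differences of 0.62 and -0.02, and Insr, with GTAAACA, -0.07. Of the 26 targets, 21 had a window, in part other genes than the 21 measured. A motif stood in 6 of these 21, beside 9.64% of all 33469 windows with either motif. Besides Igfbp1, G6pc1 and Insr they were Ccng2 with CAAAACA, and Trim63 and Bcl2l11 with GTAAACA. The centred levels of Ccng2 were -0.33, -0.02 and -0.16 with C-peptide, against 0.43 and 0.07 without. Those of Trim63 were 0.50, -0.31 and -0.04 against -0.22 and 0.07, and those of Bcl2l11 were -0.19, -0.09 and -0.03 against 0.18 and 0.13.

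Bcl6, a transcriptional repressor and FOXO target, had normalised intensities of 179.5, 142 and 187 with C-peptide, against 370.3 and 304 without. The groups were well apart, and the difference was -0.93 ± 0.17 (unadjusted p = 0.000923, adjusted p = 0.134). On the brighter probe sets Bcl6 passed at adjusted p = 0.0282, in a range of 0.0282 to 0.813 over the 13 alternatives. It was lowest in C-peptide animal 2, at a centred level of -0.60, the C-peptide array with the highest endothelial marker mean, -0.07. On every C-peptide array Bcl6 and the endothelial mean lay below both untreated arrays. The part of the endothelial markers in the difference of Bcl6 was not tested. Cdkn1b, a cell cycle inhibitor, was at -0.43 ± 0.17 (unadjusted p = 0.0343), and Ppargc1a, a coactivator of mitochondrial and gluconeogenic genes, at 0.39 ± 0.14 (unadjusted p = 0.0291). The targets at unadjusted p under 0.05 thus lay on both sides of 0, Igfbp1 and Ppargc1a above and Bcl6, Cdkn1b and Ccng2, a cyclin, below.

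**Figure D4:**
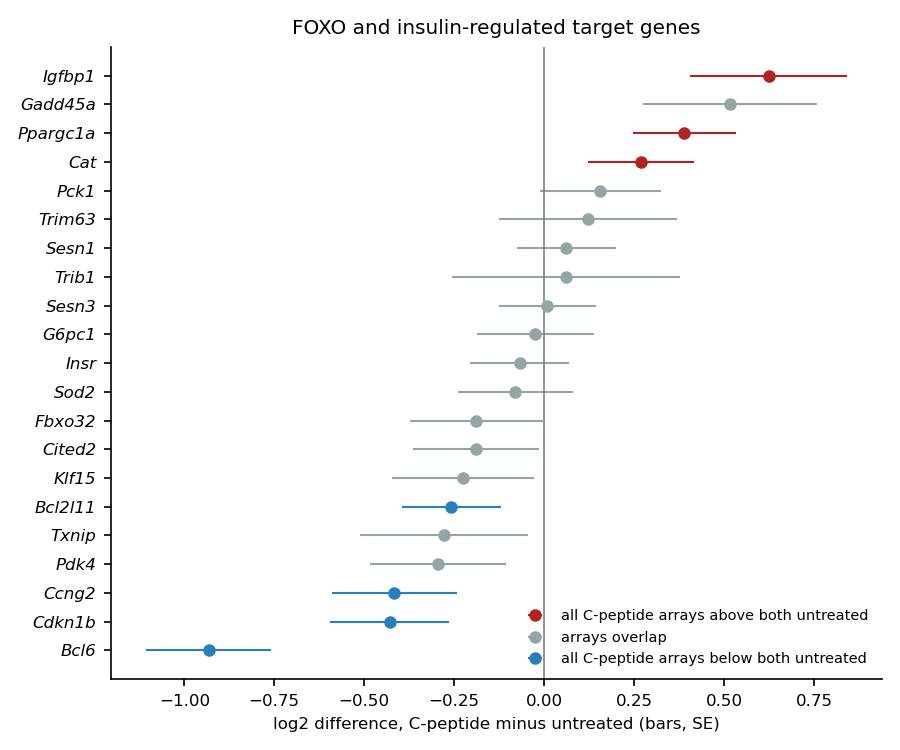
Log2 difference, C-peptide minus untreated after quantile normalisation (x axis, bars are SE), of the 21 measured FOXO and insulin-regulated genes, coloured by whether all C-peptide arrays lay above, below or among the untreated arrays. Igfbp1 lies highest at 0.62 and Bcl6 lowest at -0.93, with 3 genes apart above and 4 apart below, beside 16.1% and 13.8% of all probe sets, and 14 overlapping.

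**Figure D5:**
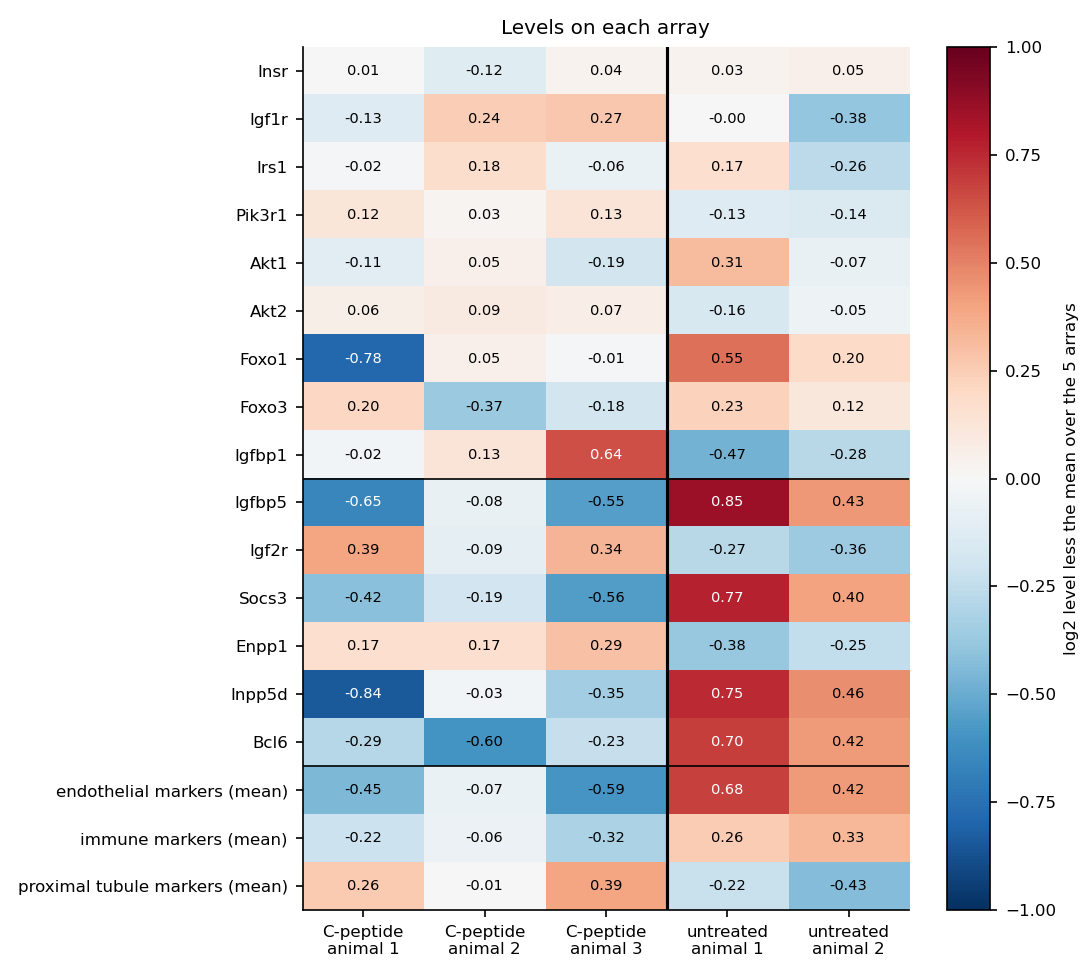
Log2 level less the mean over the 5 arrays (colour and printed values) of the 9 measured genes, 6 further pathway or target genes and the mean of 3 marker lists, on the 3 C-peptide arrays (left) and the 2 untreated arrays (right). Foxo1 is lowest in C-peptide animal 1 (-0.78) and Igfbp1 highest in C-peptide animal 3 (0.64). Igfbp5 and Socs3 are lowest in C-peptide animals 1 and 3, as the endothelial and immune marker means are.

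The levels of Foxo1 and Igfbp1 on single arrays stand beside those of several marker lists. The centred level of Foxo1 was -0.78 in C-peptide animal 1, 0.05 in animal 2 and -0.01 in animal 3, against 0.55 and 0.20 in the untreated animals. The mean of the endothelial markers was likewise lower with C-peptide but lowest in C-peptide animal 3, at -0.59, while the thick limb and distal tubule markers, at -0.31, 0.35 and 0.21, had the order of Foxo1 over the C-peptide arrays and were at -0.06 and -0.19 in the untreated animals. The centred level of Igfbp1 was -0.02, 0.13 and 0.64 with C-peptide, against -0.47 and -0.28 without. The proximal tubule mean was likewise higher with C-peptide, at 0.26, -0.01 and 0.39 against -0.22 and -0.43. The collecting duct markers had the order of Igfbp1 over the C-peptide arrays, at -0.22, 0.18 and 0.25 against -0.02 and -0.18, and so had the stromal markers, at -0.23, 0.04 and 0.09 against 0.03 and 0.07. The podocyte and immune marker means had neither the order of Foxo1 nor that of Igfbp1 over the C-peptide arrays. An order over 3 arrays is a description, and the part of these markers in the differences of Foxo1 and Igfbp1 was not tested.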

How the data were processed

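The members and gene lists were chosen with earlier results of these data known. The authors deposited linear intensities for each probe set, summarised by PLIER (Affymetrix Expression Console 1.1, according to the submitters' processing notes). Other steps before deposit are not named in the labels. The array medians differed, so the arrays were quantile normalised here, and each intensity was turned into log2(value + 16), which understates the change of dim probe sets. Of 29215 probe sets, 15310 had 1 symbol, and 15279 of these matched the RefSeq table of GRCr8. Sample titles gave the groups. The fit used limma 3.58.1 (lmFit, eBayes; R 4.3.3) and two-sided p-values, adjusted by Benjamini-Hochberg across the whole table. The number of arrays limits the precision.

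All 10 members were named, and of each further list up to 4 genes with the smallest p. For Igfbp1 and Foxo1, the 2 members with the largest differences, the 5 genes nearest in pattern were named. Ccng2, Igf1, Igf2, Ptpn1, Pdpk1, Mtor, G6pc1 and Pck1 were named after their values were seen. The fit was tested on simulated data for this comparison (29215 probe sets): at adjusted p 0.05 it called 80% of 2-fold changes, 100% of 4-fold changes and 20 unchanged probe sets. The changes were put only on probe sets brighter than the median, and the noise was drawn independently for each value from the fitted spread. The share called among dim probe sets, or with deviations shared by many probe sets of an array, was not measured. The alternatives were the values as deposited, centring, pseudocounts of 1 and 64, a filter on dim probe sets, a trended and robust prior, array weights, the animal number as a block, averaging over probe sets of one gene, a threshold of 0.1 and leaving out each array.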

Additional observations from a re-analysis of the deposited data

How the results depend on the processing

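No probe set passed at adjusted p 0.05 in limma after quantile normalisation (0 of 29215, with 3317 at unadjusted p under 0.05). The count was 52 in the values as deposited, 29 with centred arrays, 1 with a pseudocount of 1, 118 with a pseudocount of 64, 393 among the brighter probe sets and 207 with a trended and robust prior. It was 54 at adjusted p 0.1, and 0 with array weights and without each array in turn (0 to 0). None of the 9 members passed in any of 14 alternatives. Among the further pathway genes, 2 passed on the brighter probe sets and 1 with the trended prior, and among the FOXO targets 1 and 1. Of 125 values of members under alternatives, 124 kept their direction and side of the threshold, and Irs1 reversed, to -0.13 without untreated animal 2, in a range of -0.13 to 0.29 over the arrays left out. The median of the members ran from -0.059 to 0.13 when arrays were left out. Whether equally numbered animals are paired is not stated. The deviations of equally numbered arrays correlated at -0.01, and with the replicate block 0 probe sets passed, Igfbp1 was at 0.43, Foxo1 at -0.74 and the median of the members at 0.12. With 3 arrays against 2, a difference in a single gene cannot reach a permutation p below 0.1.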
